A study of Mus musculus with 287 samples.

Results

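Neuron-leaning cells were the cells of mouse cerebral organoid clones in which Stmn2, a microtubule regulator of growing neurons, outweighed Fabp7, which encodes a lipid-binding protein of radial glia. They were chosen on measured values: a cell needed an exon count above 0 in at least 1000 genes and a Stmn2 level, in exon counts per 1000000 counted (CPM), at least 4 times its Fabp7 level. This held for 79 cells. They were 31.98% of the labelled cells with that many genes (kept cells), which numbered 90, 77 and 80 on plates 1, 2 and 3. The labels place the 79 cells in clones of type SN (37 cells of 22 clones) or type N (42 cells of 16 clones), and the comparison was between these clone types. The sources used here do not say what the letters SN and N mean.

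Each library is 1 fluorescent cell drawn into a glass pipette and sequenced by Smart-seq3, a full-length single-cell RNA method. Every organoid came from mouse embryonic stem cells of genotype MADM-11GT/TG;Emx1-CreER+/-, received 60 nM 4-hydroxytamoxifen on day 13 and was collected on day 20, in SN and N clones alike. MADM (mosaic analysis with double markers) colours the daughters of a dividing cell green or red after Cre recombination, and here the inducible Cre is tied to Emx1, a gene of dorsal forebrain progenitors, so clones start from cells that use that locus. No organoid, culture or stem cell line is named for a cell, so clones may share an organoid, and p-values measure the spread between clones.

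In the developing cortex, radial glia divide next to the ventricle and produce neurons directly or through intermediate progenitors that use Eomes. Young excitatory neurons then switch on cytoskeletal genes such as Stmn2, Gap43 and Mapt, turn off Fabp7, extend axons and only later build up synapses and ion channels. Deep-layer neurons, many of which use Bcl11b, are born before upper-layer neurons.

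The 79 cells had 8078 to 13040432 exon counts each, with a median of 1832056, and a median of 4848 detected genes. Stmn2 ranged from 0 to 12286 CPM with a median of 3953, and Fabp7 from 0 to 2296 CPM with a median of 364.6. In 11 of them Fabp7 was not counted, and 1 of these, with 20834 exon counts, had no Stmn2 either and met the rule only because both values were 0. The cells just inside the rule had Stmn2 at 4.225, 4.437 and 4.548 times Fabp7, and those just outside at 3.946, 3.914 and 3.8 times. The boundary cuts through a continuous range, since 30 members lay between 4 and 8 times and 44 kept cells between 2 and 4 times.

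**Figure D1:**
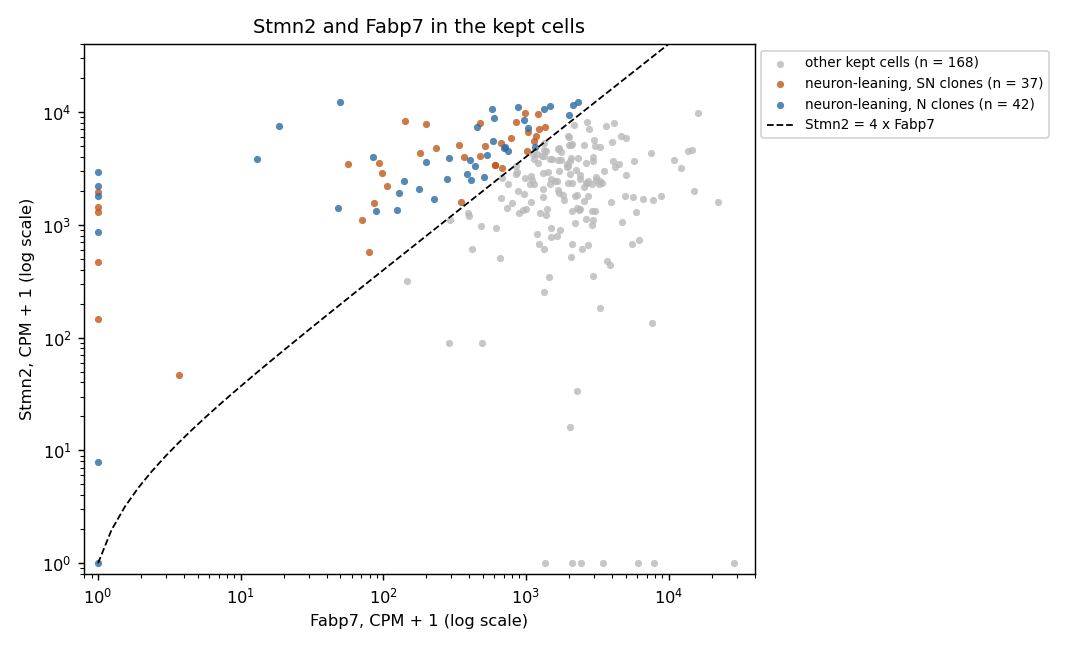
Stmn2 against Fabp7 in each kept cell, both as CPM plus 1 on log scales. Orange points are the 37 neuron-leaning cells of SN clones, blue points the 42 of N clones and grey points the other kept cells; the dashed line is the selection ratio of 4, and the orange and blue points share the same area above it.

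Most cytoskeletal and radial glia genes that the rule did not use went the way of the label, while several other neuronal lists were divided. Gap43, a growth cone protein, was counted in all 79 cells and in 97.62% of the other kept cells, at medians of 1271 and 789.8 CPM. Mapt, which encodes tau, was counted in all 79 and in 98.21% of the other kept cells, at medians of 1226 and 824.9 CPM. Of 16 genes of the neuronal cytoskeleton, 13 had a higher median in the neuron-leaning cells, while 17 of 19 radial glia genes had a lower one, with Fabp7 of the rule left out. Excitatory neuron genes had a higher median for 10 and a lower one for 0. In the same order the counts were 4 and 4 for deep-layer, 3 and 7 for upper-layer and 11 and 10 for synaptic genes. They were 4 and 5 for ion channels and 7 and 9 for axon guidance genes. The rest of these lists had equal medians. Neurod6, which helps set the fate of cortical excitatory neurons, was counted in 91.14% of neuron-leaning and 85.71% of other cells, at medians of 447.9 and 173.2 CPM. These values describe the cells; no test was made, since the rule sets neuronal against glial RNA.

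Glial and progenitor RNA had not disappeared from them. Without Fabp7, the radial glia list summed to a median of 1163 CPM in neuron-leaning cells (10.26 to 6053) against 2576 CPM in the other cells (399.8 to 13490). Vim, an intermediate filament gene of radial glia, was counted in 88.61% of neuron-leaning cells, Eomes in 39.24% and the mitotic gene Top2a in 63.29%. Whether such counts came from the drawn cell or from its neighbours was not tested. Markers of other lineages had medians of 0 CPM: Gad1 of GABAergic neurons was counted in 22.78% of the cells, Olig2 of the oligodendrocyte lineage in 12.66%, the choroid plexus gene Ttr in 29.11%, the mesenchyme gene Col1a1 in 27.85% and the endothelial gene Cldn5 in 2.532%. The excitatory neuron genes Slc17a6 and Slc17a7 had medians of 0 CPM too, so a median of 0 does not separate lineages. Summed over each list, single cells reached 1859 CPM for GABAergic, 1685 for oligodendrocyte, 3598 for choroid plexus and hem and 1981 for mesenchyme genes. Cajal-Retzius genes summed to a median of 79.45 CPM, and to 1610 at most.

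Clones differed in how many neuron-leaning cells they gave, while the means of the clone types were close. Among clones with at least 2 kept cells, the share of neuron-leaning cells averaged 29.9% ± 36.7 for type SN (SD, n = 42) and 30.0% ± 29.4 for type N (SD, n = 20), a difference of -0.082 percentage points (two-sided permutation test, p = 0.984). SN clones ran from 0 to 100%: 21 had no neuron-leaning cell among their kept cells, and in 6 all kept cells were neuron-leaning. Among N clones 6 had none, and in 0 were all kept cells neuron-leaning. Kept cells can be fewer than the cells of a clone, so these counts do not describe whole clones. N clones are larger, with labelled sizes of 5 to 19 cells in those with neuron-leaning cells, against 2 to 6 in SN clones.

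Plates differed in this share as well. Neuron-leaning cells made up 52.22% of kept cells on plate 1, 18.18% on plate 2 and 22.5% on plate 3. On plate 1 the share per clone was 36.6% ± 35.3 for SN (SD, n = 15) against 68.6% ± 18.7 for N (SD, n = 5; exact permutation test, p = 0.0733). On plate 2 the means were 24.4% in SN and 11.1% in N clones (permutation test, p = 0.341), and on plate 3 they were 28.2% and 22.4% (permutation test, p = 0.736). The direction thus turned between plates, with no p below 0.05 in any of them. By colour, 38.16% of green and 14.55% of red kept cells were neuron-leaning in SN clones, and 45.45% and 17.95% in N clones. These shares are over cells, and the difference between colours was not tested.

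**Figure D2:**
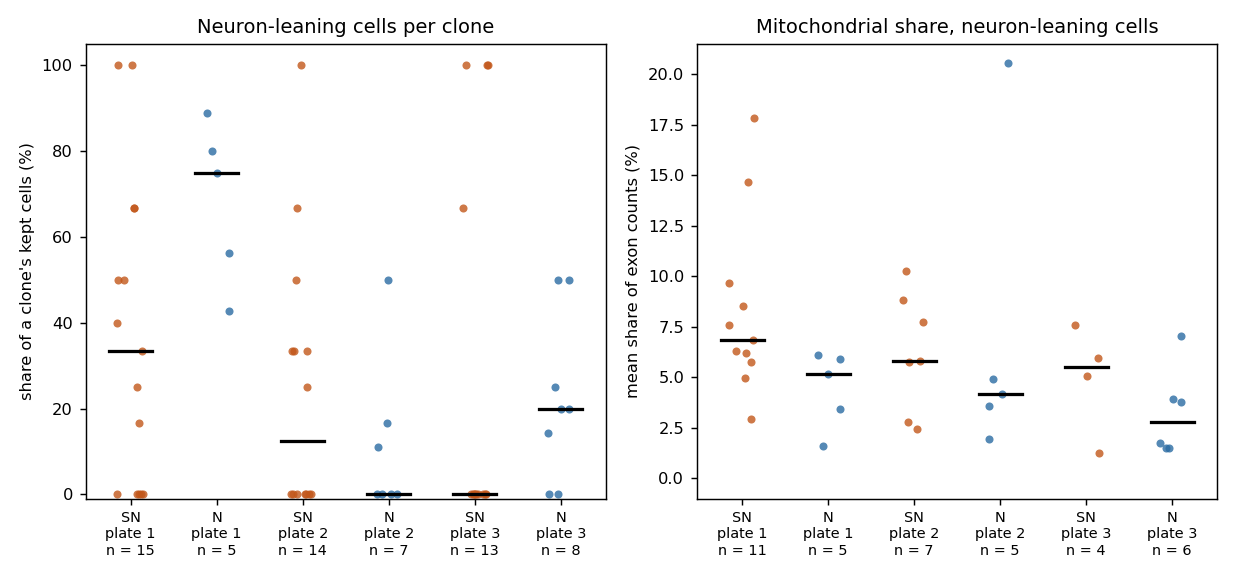
Left, the share of neuron-leaning cells among a clone's kept cells (%), for clones with at least 2 kept cells; right, the mean share of exon counts on mitochondrial genes (%) in a clone's neuron-leaning cells. Each point is a clone, split by type and plate, with the median as a black line; on plate 1 the N clones lie between 42.86 and 88.89% on the left, and on the right 1 N clone of plate 2 stands at 20.5%.

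For the comparison of genes, the exon counts of the neuron-leaning cells were summed per clone. The sums ranged from 35439 to 18648873 counts for SN, with a median of 3297246.5, and from 323479 to 28900569 for N, with a median of 6275786. Many rest on a single cell, as 11 of 22 SN and 10 of 16 N clones had 1 neuron-leaning cell, while N clones 16 and 17 held 9 and 8 of the 42 N cells.

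No gene differed between SN and N clones in the neuron-leaning cells at an adjusted p below 0.05. Of 7256 genes that passed the count filter, 0% were called by the quasi-likelihood F test of edgeR with plate as a term and Benjamini-Hochberg adjustment. At an unadjusted p below 0.05 there were 47 genes on the SN side, 0.648% of those tested, and 56 on the N side, 0.772%. Evenly spread p-values would put a fraction of 0.05 of the genes there, more than both sides together, so this test gave few small p-values. RLE size factors in edgeR also called 0, with 2.01% of the genes on the SN side and 0.606% on the N side at an unadjusted p below 0.05, and so did limma-voom, with 3.42% and 0.882%. DESeq2 called 5 genes: Abcf3, Mbnl1, Lrrcc1, Rgp1 and Zfp212. Its unadjusted p was below 0.05 for 3.49% of the genes on the SN side and 2.09% on the N side.

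The comparison could miss large changes. In counts simulated from the real means, library sizes and spread of these 38 clones, the same test called 3% of the genes changed by a log2 of 2, of which 82% passed the count filter. It called 34% of those changed by a log2 of 4, of which 74% passed the filter, and no unchanged gene, among 6245 genes tested. A difference that is not called here is therefore not shown to be absent.

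The selection markers were close in level between the types. Stmn2 ranged from 700.1 to 10160 CPM in SN clones (median 5095) and from 893 to 11580 CPM in N clones (median 4770), in CPM of the TMM-scaled clone sums, the scale of all clone levels from here on. Its log2 difference, SN minus N, was -0.01 ± 0.32 (SE, 95% interval -0.66 to 0.64), which describes a gene the rule used. Gap43 ran from 170.3 to 4570 CPM in SN clones (median 1352) and from 235.4 to 4535 CPM in N clones (median 1558), a log2 difference of -0.35 ± 0.39 (95% interval -1.14 to 0.45). Mapt had medians of 1736 and 1578 CPM and a log2 difference of -0.01 ± 0.39 (95% interval -0.81 to 0.79). Fabp7 had medians of 453.9 and 516.4 CPM. The signs of Stmn2 and Mapt turned under other scalings, among them RLE size factors, where their log2 differences were 0.12 and 0.21.

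Among the other cytoskeletal genes of young neurons, 0 of 16 passed the test, 5 lay above 0 and 11 below, and their median log2 difference was -0.06, against -0.06 for all 7256 genes. Of all 7256 genes, 47.1% lay above 0. With RLE size factors 9 of the 16 did. Stmn1, a microtubule destabiliser of dividing and newborn cells, had the smallest p of the list, with medians of 997.7 CPM for SN against 1769 CPM for N. Its log2 difference was -0.75 ± 0.42, and -0.87, -0.22 and -1.25 within plates 1, 2 and 3. Nefm, a neurofilament subunit of axons, had medians of 190.9 and 63.88 CPM and a log2 difference of 1.09 ± 1.01, which was -0.12 on plate 1 alone. Tubb3, the neuronal tubulin, and Dcx, a microtubule protein of migrating neurons, differed by 0.20 ± 0.46 and 0.10 ± 0.47.

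Genes of cortical neuron identity gave no call. Of 14 excitatory neuron genes tested, 4 were above 0 and 0 passed, and the median log2 difference was -0.23. With RLE size factors 7 of the 14 were above 0. Within plates 1, 2 and 3 the list's median was -0.20, -0.61 and 0.55, over 16, 8 and 13 genes tested. Neurod2 and Neurod6, transcription factors of these neurons, differed by -0.19 ± 0.66 and -0.25 ± 0.54. Nrp1, a semaphorin receptor, ran from 0 to 720.5 CPM in SN clones (median 152.5) and from 0 to 2114 CPM in N clones (median 204.4), a log2 difference of -1.36 ± 0.84, with -0.59, -2.27 and -1.40 within plates 1, 2 and 3.

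Of 12 deep-layer genes, 0 passed and 7 lay above 0 (median 0.06), and of 10 upper-layer genes, 0 passed and 5 lay above 0 (median -0.02). Bcl11b, a transcription factor of deep-layer neurons, differed by -0.13 ± 0.80, and Fezf2, a regulator of subcortical projection neurons, by -0.01 ± 1.14. Hs3st4, a heparan sulfate sulfotransferase of deep layers, had medians of 14.5 CPM for SN against 0 CPM for N and a log2 difference of 2.04 ± 1.20, the smallest p of the deep-layer list (unadjusted p of edgeR 0.0932, adjusted p 1). Mef2c, a transcription factor of maturing neurons, had medians of 108.7 and 31.44 CPM, and Nr4a2, the single subplate gene tested of 9, had 101.2 and 185.5 CPM. Standard errors near 1 leave differences of several-fold within the 95% intervals of most of these genes.

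Voltage-gated ion channels, which carry the currents of maturing neurons, had the highest median of the lists with more than 4 genes tested. Of 14 tested, 10 lay above 0 and 0 passed, and the median log2 difference was 0.89, against -0.06 for all genes tested. Over 6 ways of scaling and weighting the same clones it lay between 0.77 and 1.21. It was 0.04, 1.56 and 0.95 within plates 1, 2 and 3, with 16, 7 and 15 genes tested. In clones of labelled size 4 to 6 it was 0.47. The N clones among them were of size 5 or 6, so this range did not match sizes. The median of all genes tested moved as well, to -0.29, 0.46 and -0.18 within plates 1, 2 and 3 and -0.54 in clones of size 4 to 6. Relative to it, the channel list lay at 0.32, 1.10 and 1.14 within the plates and at 1.01 in clones of that size.

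Cacna2d2, an auxiliary calcium channel subunit, ranged from 0 to 376.1 CPM in SN clones (median 11.17) and from 0 to 32.05 CPM in N clones (median 0). It was counted in 15 of 22 SN and 6 of 16 N clones, with a log2 difference of 2.54 ± 1.35, 1.48 on plate 1 and 1.64 on plate 3 (unadjusted p of edgeR 0.0637, adjusted p 1). Kcnc1, a fast potassium channel, had medians of 6.19 and 0.301 CPM and a log2 difference of 2.48 ± 1.36. The sodium channel genes Scn2a, Scn3a and Scn8a differed by 0.72 ± 1.05, 1.15 ± 0.94 and 0.48 ± 1.25. The ranges of both types overlapped for Cacna2d2 and Kcnc1, as both had clones at 0.

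Synaptic genes were divided. Of 21 tested, 12 lay above 0 and 0 passed, with a median of 0.19. Rab3a, a vesicle-bound GTPase of transmitter release, ran from 0 to 430 CPM in SN clones (median 107.9) and from 1.788 to 853.6 CPM in N clones (median 295.6). Its log2 difference of -1.29 ± 0.70 held its sign on all plates, at -1.07, -1.02 and -1.88 (unadjusted p of edgeR 0.0693, adjusted p 1). Nlgn1, a postsynaptic adhesion protein, differed by 1.31 ± 1.13 with medians of 27.99 and 28.75 CPM, and Snap25, a fusion protein of vesicles, by -0.09 ± 0.75.

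Of 21 axon guidance genes, 15 lay below 0, 6 above and 0 passed, with a median of -0.35. Epha4, an ephrin receptor, ran from 0 to 292.1 CPM in SN clones (median 15.05) and from 0 to 848.2 CPM in N clones (median 60.73), a log2 difference of -2.11 ± 1.09. Within plates 1, 2 and 3 it was -0.87 ± 1.20, -2.86 ± 2.33 and -2.94 ± 1.72. Slit1, a repellent ligand, lay on the other side at 2.15 ± 1.33. The list's median was -0.58 and -0.31 on plates 1 and 2 but 0.46 on plate 3, over 24, 13 and 22 genes tested.

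**Figure D3:**
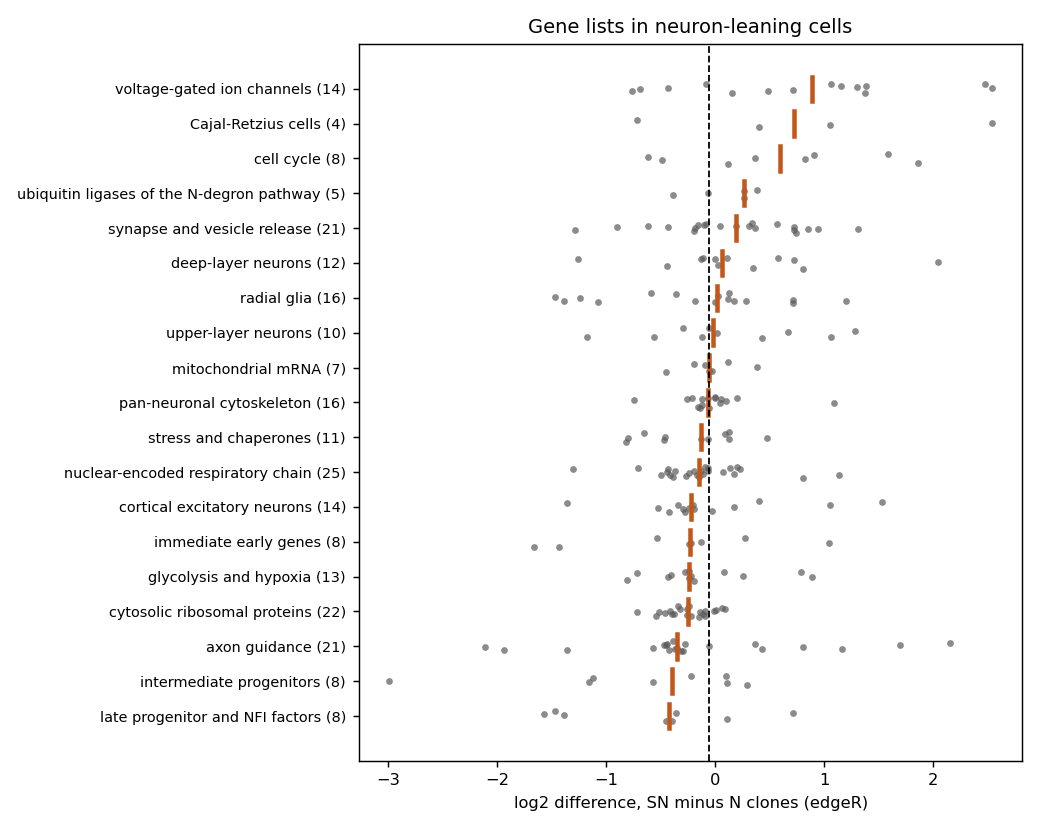
Log2 difference between SN and N clones in neuron-leaning cells for each tested gene of the lists with at least 4 tested genes (number in brackets), one grey point per gene, with the list's median as an orange bar and the median of all 7256 genes (-0.06) as a dashed line. Ion channels sit furthest to the right at a median of 0.89, most ribosomal protein genes lie left of 0, and no point passed the adjusted threshold.

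Progenitor genes remained present at low levels. Of 16 radial glia genes, Fabp7 among them, 9 lay above 0 and 0 passed, with a median of 0.01. Slc1a3, a glutamate transporter of radial glia and astrocytes, had medians of 14.49 and 7.896 CPM but a highest N clone at 1051 CPM, and its log2 difference was -1.39 ± 1.01. Of 8 intermediate progenitor genes, 3 lay above 0 and 0 passed at the adjusted threshold, with a median of -0.40. Of 8 cell cycle genes, 6 lay above 0 and 0 passed, with a median of 0.59. Within plates 1, 2 and 3 the list's median was -0.39, 3.52 and -0.99, over 21, 3 and 7 genes tested.

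Eomes, the transcription factor of intermediate progenitors, was among the 10 named genes of smallest p on the N side. It ranged from 0 to 132.1 CPM in SN clones (median 1.802) and from 0 to 345 CPM in N clones (median 4.559), and 12 of 22 SN and 9 of 16 N clones had a count. The medians were near each other, and the highest N clone lay above the highest SN clone. The log2 difference was -3.00 ± 1.22 (unadjusted p of edgeR 0.0161, adjusted p 1), and it was -2.27 ± 1.41 on plate 1 and -2.49 ± 2.36 on plate 3; on plate 2 the gene fell under the count filter. Without N clone 42 it was -1.46.

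Of 8 genes linked to late progenitors, with NFI factors among them, 6 lay below 0 and 0 passed, with a median of -0.43. The list's median was -0.35 with RLE size factors and -0.73, -0.53 and -0.57 within plates 1, 2 and 3. With limma-voom it was 0.16 and in clones of size 4 to 6 it was 0.30, each with 5 of 8 above 0. Zbtb20, a transcription factor of the developing hippocampus and of late cortical progenitors, ran from 0 to 1070 CPM in SN clones (median 147.7) and from 0 to 4137 CPM in N clones (median 286.3). Its log2 difference was -1.57 ± 0.75 (unadjusted p of edgeR 0.0384, adjusted p 1), with -1.36, -1.97 and -1.56 within plates 1, 2 and 3 and -2.08 ± 0.78 from intron counts. In clones of size 4 to 6 it was -0.94 ± 1.12. Nfia and Nfib differed by 0.11 ± 0.72 and -0.46 ± 0.50.

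The share of RNA from mitochondria had a higher mean in SN clones, but over all clones the difference did not pass the test. Mitochondrial genes took 7.04% ± 3.80 of exon counts in the neuron-leaning cells of SN clones (SD, n = 22; lowest 1.27, median 6.24, highest 17.8) and 4.81% ± 4.55 in those of N clones (SD, n = 16; lowest 1.49, median 3.87, highest 20.5). The ranges overlapped, and the difference of 2.23 percentage points had a permutation p of 0.101 (adjusted over 4 measures 0.402). N clone 39, with 1 neuron-leaning cell, held the highest value; without it, a step taken after the data were seen, the N mean was 3.76% ± 1.83 and the difference 3.28 points (permutation test, p = 0.00124).

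This share was also taken by clone size, without a test of the relation between them. In clones of labelled size 4 to 6 the share was 9.55% ± 4.26 in SN (SD, n = 9) against 3.08% ± 1.54 in N (SD, n = 8; exact permutation test, p = 0.000165). There the SN clones ran from 4.98 to 17.8% and the N clones from 1.49 to 5.16%, so they overlapped only around 5%. These N clones were of size 5 or 6, while SN clones of size 4 were included, so sizes were not matched. The permutation tests of these clone means leave plate out, and 6 of the 9 SN clones were of plate 1 while 4 of the 8 N clones were of plate 3. Within plates, the SN and N means were 10.2% and 3.39% on plate 1 (6 and 2 clones), 9.55% and 3.44% on plate 2 (2 and 2 clones), and on plate 3 the single SN clone stood at 5.95% against 2.75% in 4 N clones. SN clones of size 2 to 3 had 5.30% ± 2.28 (SD, n = 13) and N clones of size 7 to 19 had 6.53% ± 5.93 (SD, n = 8). In the clones of size 4 to 6, the mean log10 of exon counts was 5.88 in SN and 6.35 in N clones (exact permutation test, p = 0.176), and the mean number of detected genes 5415 and 7805 (exact permutation test, p = 0.220); the part of these in the mitochondrial share was not tested.

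By plate, the mitochondrial share was 8.30% in SN and 4.45% in N clones on plate 1 (exact permutation test, p = 0.0366), 6.24% and 7.03% on plate 2 (exact permutation test, p = 0.811), and 4.97% and 3.25% on plate 3 (exact permutation test, p = 0.295). The higher mean was thus in SN clones on plates 1 and 3 and in N clones on plate 2, the plate of clone 39. Most of these counts were ribosomal RNA. A split into RNA kinds, made after the data were seen, gave 6.19% ± 3.30 in SN and 3.96% ± 3.20 in N clones for mt-Rnr1 and mt-Rnr2 together (SD, n = 22 and 16; permutation test, p = 0.0368, adjusted over 7 measures 0.258). The other mitochondrial genes took 0.849% and 0.848% (permutation test, p = 0.931), but without N clone 39 the N mean was 0.498% (permutation test, p = 0.0303). In clones of size 4 to 6 they took 1.15% and 0.457% (exact permutation test over 9 and 8 clones, p = 0.00378).

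mt-Rnr2, the large mitochondrial ribosomal RNA, was also among the 10 named genes of smallest p on the SN side, and the one with a count in every cell. It ran from 8891 to 75610 CPM in SN clones (median 23310) and from 4841 to 57730 CPM in N clones (median 13680). Its log2 difference was 0.61 ± 0.25 (95% interval 0.10 to 1.13; unadjusted p of edgeR 0.0184, adjusted p 1), with 0.76, 0.44 and 0.60 within plates 1, 2 and 3 and 1.56 ± 0.37 in clones of size 4 to 6. mt-Rnr1, the small mitochondrial ribosomal RNA, differed by 0.37 ± 0.30.

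Mitochondrial mRNAs of the respiratory chain were divided over all clones. Of 7 tested, 2 lay above 0 and 0 passed, with a median of -0.06, while 6 lay above 0 with RLE size factors; in clones of size 4 to 6 all 7 lay above 0, with a median of 1.14. mt-Co1, a subunit of cytochrome oxidase, had medians of 2289 CPM for SN against 1224 CPM for N but a highest N clone at 22590 CPM, and its log2 difference of -0.45 ± 0.47 became 0.25 without N clone 39. Of 25 nuclear genes of the respiratory chain, 7 lay above 0 and 0 passed, with a median of -0.15, against -0.06 for all genes. With RLE size factors 16 of them lay above 0. Within plates 1, 2 and 3, 2 of 25, 18 of 24 and 6 of 25 did.

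Of 22 genes of cytosolic ribosomal proteins, 19 lay below 0, 3 above and 0 passed, with a median of -0.25. Rpl7 ran from 180 to 2970 CPM in SN clones (median 931) and from 0 to 4330 CPM in N clones (median 1631), a log2 difference of -0.72 ± 0.44. All 22 lay below 0 on plate 1, whereas 15 lay above 0 on plate 2 and 11 on plate 3; relative to the median of all genes, the list's median was -0.47, -0.08 and 0.14 on plates 1, 2 and 3. Of the 22, 11 lay above 0 with RLE size factors, which moved the median of all genes from -0.06 to 0.16. Stress and glycolysis genes gave 0 calls, with 4 of 11 and 4 of 13 above 0, as did immediate early genes with 2 of 8. With RLE size factors 6, 6 and 3 of these lists lay above 0.

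Apart from mt-Rnr2, the genes of smallest p were counted in only part of the clones. On the N side their sizes depended in part on single clones. With 1 N clone left out, the fold difference (not its log2) shrank by over 1.5 times for 9 of the 10, all but Lrrcc1. The log2 differences then left ran from -3.59 for Zfp212 to -0.94 for Rgp1. On the SN side, 1 clone left out shrank the fold difference by at most 1.43 times. Among the 10 on the N side, Zfp212, a zinc finger gene, led with 0 to 37.25 CPM in SN clones (median 0) and 0 to 320.6 CPM in N clones (median 16.66). A count was found in 9 of 22 SN and 10 of 16 N clones, and the ranges overlapped from 0 up to the highest SN clone. The log2 difference was -4.72 ± 1.21 (unadjusted p of edgeR 0.000211, adjusted p 1; adjusted p of DESeq2 0.0373), with -3.99 ± 1.49 on plate 1 and -5.68 ± 3.09 on plate 3, and it was -3.59 without N clone 42.

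Ptpre, a receptor tyrosine phosphatase, ran from 0 to 49.79 CPM in SN clones (median 0.153) and from 0 to 884 CPM in N clones (median 18.24), a log2 difference of -3.70 ± 1.19, with -3.33 and -4.07 on plates 1 and 3 and -2.92 without N clone 45. Lrrcc1, a centrosomal protein, ran from 0 to 118.4 CPM in SN clones (median 1.113) and from 0 to 845.5 CPM in N clones (median 48.11), a log2 difference of -4.01 ± 1.55 with -0.55, -7.42 and -3.25 within plates 1, 2 and 3. Fbxo22, a substrate receptor of ubiquitin ligases, had medians of 1.033 and 92.73 CPM, with a count in 11 SN and 11 N clones, and a log2 difference of -2.84 that was -1.37 without N clone 35. Rgp1, a subunit of an exchange factor for a Golgi GTPase, had the largest log2 difference of the 10, -5.25 ± 1.93, although its mean levels were 30.6 CPM for SN against 45.1 CPM for N. Without N clone 42 its log2 difference was -0.94; on plate 1 it was -0.08 ± 1.42 and on plate 3 it was -5.51 ± 3.14. The rest were Fam155a, which assists a sodium leak channel, Vat1l, Rps6kl1, Gm26871 and Eomes, at log2 differences from -3.28 to -2.79. Without N clone 28, Fam155a was at -1.09 and Vat1l at -1.78, and without N clone 35, Rps6kl1 was at -2.16 and Gm26871 at -1.42.

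On the SN side, Mbnl1, a splicing regulator whose activity grows as tissues mature, ran from 0 to 129.8 CPM in SN clones (median 12.72) and from 0 to 78.3 CPM in N clones (median 0.816). It was counted in 17 of 22 SN and 14 of 16 N clones, so most clones of both types had its RNA. The log2 difference was 3.29 ± 1.27 (unadjusted p of edgeR 0.0115, adjusted p 1; adjusted p of DESeq2 0.0373), with 3.24 ± 1.93 on plate 1 and 1.12 ± 2.08 on plate 3, and 1.37 ± 1.15 from intron counts.

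Nenf, which encodes a secreted neurotrophic protein, reached 157.6 CPM in SN clones (median 6.197) and 11.04 CPM in N clones (median 0), a log2 difference of 3.77 ± 1.49. Cdh11, an adhesion protein of the cadherin family, reached 171.5 CPM in SN clones (median 11.52) and 60.01 CPM in N clones (median 0.381), a log2 difference of 2.99 ± 1.26, and 2.54 ± 1.33 from intron counts. Ppil1, a spliceosomal isomerase, had medians of 51 CPM for SN against 0 CPM for N. The rest on this side, beside mt-Rnr2, were 2610001J05Rik, Zbtb5, Cdadc1, Ankle2 and Fam120b, at log2 differences from 2.54 to 3.53.

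**Figure D4:**
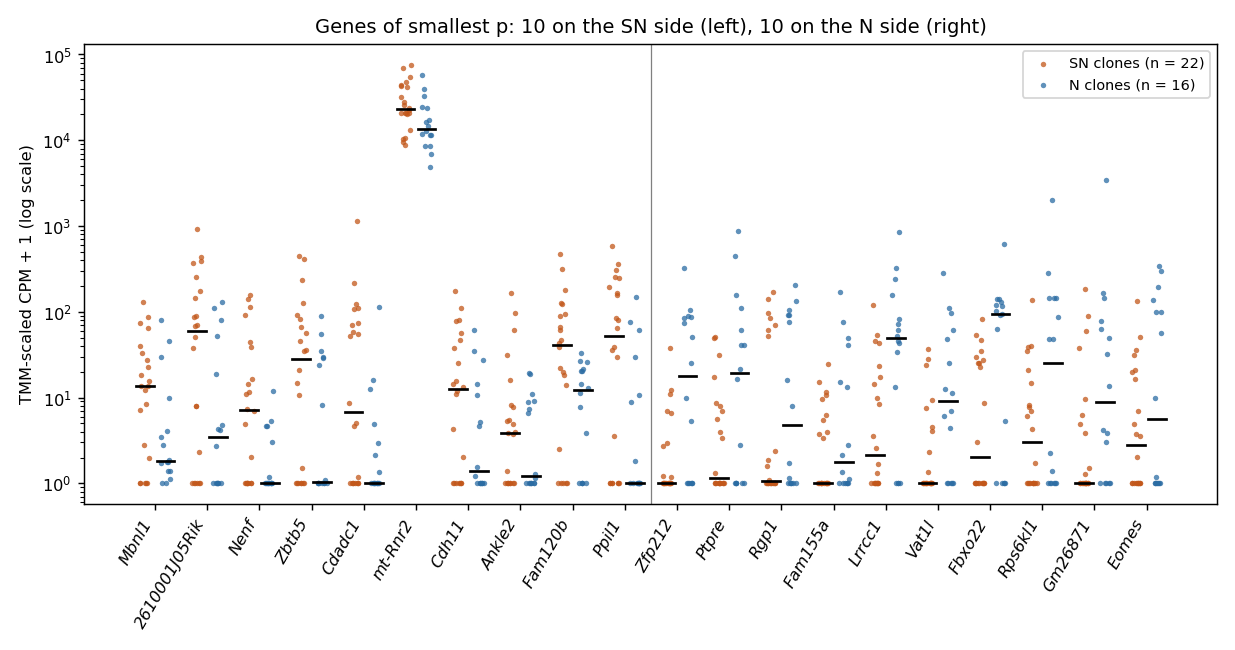
Level of the 20 named genes of smallest p in each clone, as TMM-scaled CPM plus 1 on a log scale, with 10 genes on the SN side left of the line and 10 on the N side right of it; orange points are the 22 SN clones, blue points the 16 N clones and black bars the medians. Apart from mt-Rnr2, every gene has clones of both types at or near 0, and the ranges of the 2 types overlap for all 20 genes.

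For all 61 genes named from the SN to N test, the ranges of SN and N clones overlapped, and 0% of the 7256 genes tested had ranges that did not.

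The SN to N difference of neuron-leaning cells was also compared with that of the other kept cells of the same clones, in the 15 SN and 14 N clones that held both. Of 10277 genes, 0% had an adjusted p below 0.05 in the edgeR test of the interaction, with clone as a block. At an unadjusted p below 0.05, the SN to N difference was higher in neuron-leaning cells for 1.37% of the genes and lower for 0.71%. DESeq2 called 498 in the same design, 2.7% of the genes as higher and 2.15% as lower.

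Among the genes of smallest p, Coq9, of coenzyme Q synthesis, had medians in neuron-leaning cells of 5.107 CPM for SN against 1.756 CPM for N, and in other cells of 0 and 8.118 CPM, a log2 interaction of 8.78 ± 2.86. Zfp292, a zinc finger gene, had medians in neuron-leaning cells of 5.015 CPM for SN against 150.1 CPM for N, against 245.4 and 130.1 CPM in other cells, a log2 interaction of -5.94 ± 2.29. Kcnt2, a sodium-activated potassium channel, and A230103L15Rik lay on the side of Coq9, and Rab39b, a GTPase of vesicle traffic, and Hacd3, of fatty acid elongation, on the side of Zfp292, all with an adjusted p of 1. mt-Rnr2 had an interaction of 0.12 ± 0.28: its median was 30770 CPM for SN against 13880 CPM for N in neuron-leaning cells and 32240 and 20520 CPM in the other cells.

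Other measures of the libraries gave no p below 0.05 between the types over all clones, although the medians of detected genes were apart. The intron share of counts was 26.9% in SN and 27.0% in N clones (permutation test over 22 and 16 clones, p = 0.970, adjusted 0.970). Cells had a mean of 6849 detected genes in SN and 6146 in N clones (permutation test, p = 0.594, adjusted 0.792), with clone medians of 7104 and 4876. Thinning of every cell to 100000 exon counts left 32 of 37 SN and 38 of 42 N cells. The means were then 4970 and 4097 (permutation test, p = 0.242) and the medians 5166 and 3256. The mean log10 of exon counts was 6.06 in SN and 6.18 in N clones (permutation test, p = 0.544, adjusted 0.792). On plate 3 it was 5.61 and 6.35 (exact permutation test, p = 0.143). The gene ENSMUSG00000119584, which has no symbol in the table used, took 18.5% ± 14.8 of exon counts in SN and 21.2% ± 15.0 in N clones (SD, n = 22 and 16; permutation test, p = 0.588, adjusted over 7 measures 0.832), and its share was 10.2% and 11.9% on plate 1, 19.6% and 14.3% on plate 2 and 39.5% and 34.7% on plate 3.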

How the data were processed

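Libraries were single Smart-seq3 cells. The authors deposited raw read counts for each gene in each cell, exons and introns apart. The submitters' processing notes name genome build GRCm39, STAR 2.7.9a and R 4.4.0; the counter, the annotation and whether molecular identifiers were used are not given in the sources used here. Coordinates are left out, as the annotation used here is of another build; 52083 of 55359 gene IDs had a symbol. Labels set clone, type and plate; clone 45, on 2 plates, went to plate 3.

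Exon counts were summed per clone and tested with edgeR 4.0.16 (TMM, filterByExpr, quasi-likelihood F test, plate as a term, R 4.3.3), adjusted by Benjamini-Hochberg at 0.05; SE is the size of the log2 difference divided by the root of F. Alternatives were DESeq2 1.42.0, limma 3.58.1 (voom), other scalings, filters, selections, plates, sizes and single clones left out. Clone means were compared by two-sided permutation tests without a plate term (100000 resamples, or all arrangements, called exact, where there are no more than that; scipy 1.17.1). The gene test was tried on simulated counts.

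Named genes were the 10 of smallest p per direction and 3 per direction of the interaction, among genes with a symbol and a count in at least 27 of the 79 cells, and, without that minimum, the 2 of smallest p per list and Stmn2, Gap43, Mapt and Fabp7. Members and the 28 gene lists were chosen with earlier results of these data known. GABAergic, oligodendrocyte, choroid plexus, endothelial and microglial, and pluripotency lists had 0 genes tested; 1 mesenchyme gene (Col3a1, log2 difference 1.48 ± 1.80) and 4 Cajal-Retzius genes (median 0.73) were tested. Intervals and levels carry counting error of reads, which are not independent molecules. Results on some genes are not reported here.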

Additional observations from a re-analysis of the deposited data

How the results depend on the processing

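The count of genes called between SN and N clones stayed at 0 under most settings, leaving out each clone included (lowest and highest 0). It was 5 with DESeq2 and 4041 with no filter on low counts (of 33369 genes, 4 of them among the 7256 of the filtered test). It was 1 on plate 2, on plate 3 and in clones of size 4 to 6. That 1 was ENSMUSG00000119584 each time, on the SN side at log2 differences of 0.88, 0.69 and 1.34. Permutation tests of its mean share per clone differed from this, with p = 0.462, 0.667 and 0.730. In clones of size 4 to 6 that share was 17.3% in SN and 19.8% in N clones. The interaction gave 498 with DESeq2. The cause of these shifts was not tested. The depth and the number of clones limit what can be seen: clones with 1 cell and few counts give levels of 0 for genes of a few CPM.

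The difference in mitochondrial share, in percentage points, was 1.94 at a Stmn2 to Fabp7 ratio of 2 (permutation test, p = 0.0335) and 3.36 at a ratio of 8 (p = 0.0155 by permutation). It was 3.85 on plate 1, 6.47 in clones of size 4 to 6 and -0.79 on plate 2. The highest N value, 20.5% for clone 39 in the main setting, was 12.6% at a ratio of 2 and 8.17% at a ratio of 8. Plate 1 and the clones of size 4 to 6 do not hold clone 39. The settings that lack clone 39 are thus not separate from leaving it out. A cell that meets a ratio of 4 also meets a ratio of 2, so the clone stayed in that setting. In clones of size 4 to 6 the SN mean was higher too, at 9.55% against 7.04% over all SN clones. Leaving out single clones, added after the data were seen, gave 1.72 to 3.28, with p below 0.05 only without N clone 39. The difference in the share of neuron-leaning cells turned positive at 13.3 points on plate 2, 5.79 on plate 3, 0.97 without clone 45 and 0.17 without the cell that lacked both genes; it stayed negative elsewhere, from -0.64 at a ratio of 2 to -7.09 in clones of size 4 to 6 and -32.0 on plate 1, and ran from -1.79 to 3.02 without single clones. For the next 3 measures, values are given where the sign turned. The intron share differed by 0.50 points at a ratio of 8, 0.28 in cells with 2000 genes, 0.010 in cells with 100000 exon counts, 11.2 on plate 3, 0.50 without clone 45 and 2.78 in clones with 2 neuron-leaning cells. Detected genes differed by -1791 on plate 3 and -2389 in clones of size 4 to 6. The log10 of exon counts differed by 0.0076 in cells with 100000 exon counts, 0.0046 on plate 1, 0.19 on plate 2 and 0.058 in clones with 2 neuron-leaning cells.

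Among the named genes, these log2 differences had the opposite sign, with no adjusted p below 0.05. With intron counts, an alternative added after the data were seen, they were Fam155a 1.25, Gap43 0.35, Nefm -0.24, Nlgn1 -1.52, Slc1a3 0.90 and Fabp7 -0.059. On plate 3 they were Gm26871 0.39, Nr4a2 -0.29, Slc1a3 0.20, Cenpf -1.12 and Ubr3 0.92. In cells with 2000 genes they were Gap43 0.032, Stmn2 0.064, Pou3f1 0.30 and Mapt 0.071. With RLE size factors they were Stmn2 0.12 and Mapt 0.21. With DESeq2 they were Stmn2 0.095 and Mapt 0.026. With the stricter count filter they were Stmn2 0.038 and Mapt 0.030. In cells with 100000 exon counts they were Stmn2 0.15 and Mapt 0.13. Without the plate term they were Stmn2 0.055, Ubr2 -0.11 and Mapt 0.041. With totals without the mitochondrial rRNAs and ENSMUSG00000119584 they were Stmn2 0.0076 and Mapt 0.0064. On plate 2 they were Stmn2 0.89, mt-Nd6 -0.47, Nr4a1 0.29, Pgk1 0.63 and Mapt 0.46. Without clone 45 Stmn2 was at 0.00041. On plate 1 they were Nefm -0.12, Nr4a2 -0.16, Ndufb5 -0.37, Vegfa -0.79, Nhlh2 -0.25 and Fabp7 -0.41. In clones of size 4 to 6 they were Nefm -0.49, Slc1a3 1.11, Aldoc 1.05, mt-Co1 0.64, Rpl7 0.069, Vegfa -0.46 and Fabp7 -0.18. At a ratio of 2 they were Hs3st4 -0.058, Etv1 0.63, mt-Co1 0.31, Dusp1 0.48, Ubr3 0.080, Col3a1 -1.59, Mapt 0.069 and Fabp7 -0.022. With limma-voom they were Etv1 0.22, Pou3f1 0.54, Slc1a3 0.28, mt-Co1 0.13, Nr4a1 1.27 and Mapt 0.0044. At a ratio of 8 they were Mef2c -0.27, Nr4a2 -0.11, Vegfa -0.35, Ubr3 0.60 and Fabp7 -1.29. In clones with 2 neuron-leaning cells they were Nr4a2 -1.33, Cenpf -0.0097, Ddit4 0.023, Vegfa -0.13, Nhlh2 -0.079 and Fabp7 -0.33. With equal weight per cell they were Nr4a1 0.0045 and Mapt 0.018.

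Leaving out single clones turned the sign of 7 named genes: Stmn2 ran from -0.12 to 0.13, Mapt from -0.11 to 0.091, Pou3f1 from -1.38 to 0.020, mt-Co1 from -0.60 to 0.25, mt-Nd6 from -0.12 to 1.08, Nr4a1 from -1.70 to 0.061 and Ubr3 from -0.74 to 0.47. No paired analysis was possible because the labels give cells of SN and N clones no shared replicate number; the numbers used name cells only.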

Other observations

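For 3 cells the labels give no clone, and they were compared with nothing. The first had 1689914 exon counts, 1664 CPM of Stmn2 and 8884 CPM of Fabp7. The second had 5976683 exon counts, 2227 CPM of Stmn2 and 907 CPM of Fabp7. The third had 2257 exon counts in 130 genes, with neither gene counted. None of the 3 met both conditions of the selection.

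Abcf3, an ATP-binding cassette protein of translation control named here after its values were seen, had the smallest adjusted p of DESeq2 among the 5 genes that tool called (0.00253, log2 difference 6.92). It was counted in 22 of the 79 cells, under the number required for the leading named genes.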
